A study of Homo sapiens with 12 samples.

Results

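Glycolysis was followed through 10 enzyme genes chosen by symbol: HK2, GPI, ALDOA, TPI1, GAPDH, PGK1, PGAM1, ENO1, PKM and LDHA. All 10 were found among the 58302 genes listed. The libraries came from DLD1, an established human colorectal cancer line, at passage 5. Cells carried a short hairpin RNA against NAT10, which writes the RNA mark N4-acetylcytidine (ac4C), labelled shNAT10, or the control hairpin shNC. Each hairpin had 3 input libraries of fragmented total RNA and 3 libraries immunoprecipitated with an ac4C antibody. Gene levels are those of the 6 inputs, in FPKM, that is, fragments per length of gene and size of library. Peaks came from the authors' deposited table of differential ac4C peaks. The sources used here give neither the hairpin sequence, nor whether cells were pooled or clonal, nor whether replicates were separate cultures.

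Glycolysis splits glucose into pyruvate in the cytosol. Its first enzymes spend ATP to make and cleave a doubly phosphorylated sugar, its later enzymes earn ATP and NADH back, and lactate dehydrogenase turns pyruvate into lactate and restores the NAD+ that GAPDH consumes. Many tumours, colorectal ones included, run this route at a high rate even with oxygen present. The factors HIF-1 and MYC are known activators of many of its genes. ac4C on mRNA has been linked to RNA stability and translation.

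Fragments on genes, recovered from the FPKM values, numbered 1224104 to 1303818 in the libraries labelled shNAT10 and 2636810 to 2758165 in shNC, so a given FPKM rests on fewer fragments in shNAT10. NAT10 went against its label: it was at FPKM 0, 28.1 and 31.4 in shNAT10 replicates 1 to 3, against 1.24, 3.95 and 2.89 in shNC. Replicates 2 and 3 thus lay above every shNC library. The libraries are therefore called by their label, and every direction below is that of the label. Colorectal epithelial markers (9 of 10 above 0 in some library, 7 in all 6, TFF3 at 0) summed to FPKM 8125 to 8583 in shNAT10 and 5053 to 5385 in shNC. Fibroblast and muscle markers summed to 24.7 to 90.2 in shNAT10 and 1.12 to 6.34 in shNC, with 0 of 8 above 0 in all 6 libraries. Leukocyte, endothelial, hepatocyte and neural markers summed to at most 3.29 in any library. The part of these differences in the enzyme levels was not tested. In bulk RNA, fewer cells of a type and less RNA per cell cannot be told apart.

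All 10 enzyme genes were above 0 in all 6 libraries. Of all tested genes 77.4% were at 0 in at least 1 library. Being above 0 throughout held for 41.3% of the 3891 protein-coding genes within the range of their mean levels, FPKM 6.94 to 609. HK2 alone set the low end of that range, and GPI, the next lowest member, averaged 20.1. These 3891 genes are thus not matched in level to each member. Of the 10 enzyme genes 0 passed the test across all genes, against 0.190% of all tested genes, and the lowest adjusted p was 0.754 (limma, n = 3 per group). The last enzymes of the route stood apart in the order of their values: PKM and LDHA were higher in every library labelled shNAT10 than in any shNC library, as were 2.89% of all tested genes. The other 8 overlapped between hairpins. All 10 passed the filter for testing, a mean FPKM of at least 1. Gene positions below are those of RefSeq on GRCh38.p14.

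The upper steps, up to the triose phosphates, held the scarcest member and a steep range of levels. HK2 (chr2:74834127-74893359), the hexokinase that traps glucose in the cell as glucose 6-phosphate, was at FPKM 12.0, 1.21 and 0.275 in shNAT10, against 21.1, 0.251 and 6.79 in shNC. Both hairpins held a library near 0.3, which rested on 2 fragments in shNAT10 replicate 3 and on 5 in shNC replicate 2. Within a hairpin the highest HK2 value was 43.5 times the lowest in shNAT10 and 84.1 times in shNC. GPI (chr19:34359718-34402413), which turns glucose 6-phosphate into fructose 6-phosphate, had FPKM 23.4, 26.7 and 20.8 in shNAT10, against 31.3, 5.55 and 12.6 in shNC. Its shNAT10 replicates lay within a factor of 1.29 of one another, and the shNC values enclosed them.

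ALDOA (chr16:30064279-30070420), the aldolase that cleaves fructose 1,6-bisphosphate, had FPKM 7.13, 71.0 and 22.7 in shNAT10, against 83.7, 63.3 and 17.9 in shNC. Its 7.13 in shNAT10 replicate 1 was the lowest of all 6 and came in the library with the highest summed level of the enzymes. TPI1 (chr12:6867420-6870948), which interconverts the triose phosphates, had FPKM 359, 71.7 and 285 in shNAT10, against 167, 193 and 255 in shNC. The shNAT10 replicates spanned the shNC range on both sides, and replicate 2 was the only library below 100.

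The lower, ATP-yielding enzymes included the most abundant and steadiest member. GAPDH (chr12:6534517-6538371), which oxidises glyceraldehyde 3-phosphate and is widely used as a loading control, had FPKM 886, 834 and 437 in shNAT10, against 454, 510 and 531 in shNC. These levels rested on 3672, 3724 and 1561 fragments in shNAT10 and on 4577, 4991 and 5427 in shNC. Replicates 1 and 2 labelled shNAT10 lay above every shNC library and replicate 3 below every one. The means were 719 ± 246 in shNAT10 and 498 ± 40.0 in shNC (SD, n = 3 each), a log2 difference of 0.46 (95% interval -0.71 to 1.64). GAPDH and TPI1 lie on the same chromosome, 329048 bases apart, and did not share their order of libraries.

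PGK1 (chrX:78104248-78129295) makes ATP from 1,3-bisphosphoglycerate. It had FPKM 85.1, 2.34 and 36.1 in shNAT10, against 71.1, 9.33 and 10.3 in shNC. In both hairpins replicate 1 was the highest and replicate 2 the lowest, and the shared number carries no stated pairing. PGAM1 (chr10:97426191-97433444), the mutase that moves the phosphate group of phosphoglycerate, had FPKM 37.0, 19.5 and 136 in shNAT10, against 2.07, 5.81 and 51.0 in shNC. Only shNC replicate 3, at 449 fragments, reached into the shNAT10 range, while replicates 1 and 2 of shNC rested on 18 and 49 fragments. Its log2 difference was 2.20 (95% interval -0.91 to 5.31). ENO1 (chr1:8861000-8878686), the enolase that forms phosphoenolpyruvate, had FPKM 271, 144 and 272 in shNAT10, against 140, 292 and 180 in shNC, and the shNC values enclosed those of shNAT10.

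**Figure D1:**
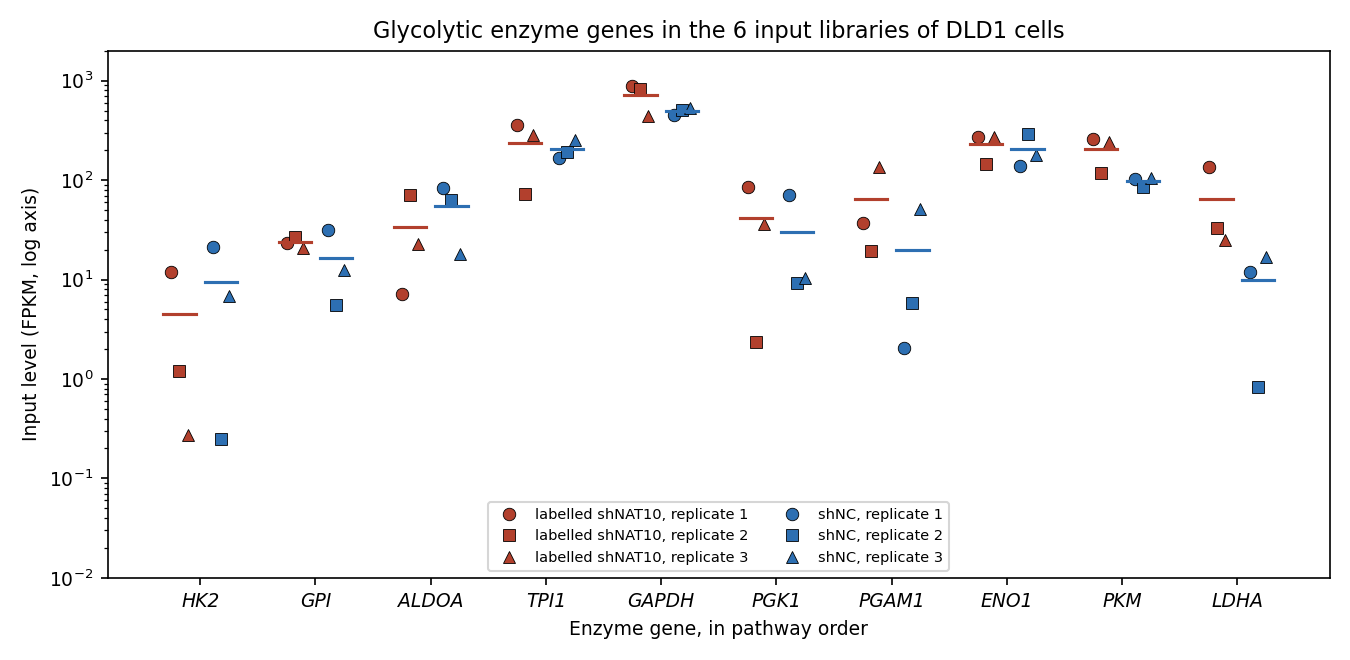
Input level in FPKM (log axis) of the 10 enzyme genes, left to right in pathway order, with libraries labelled shNAT10 in red left of shNC in blue. Symbols mark replicates and bars the mean of 3. GAPDH is the highest gene in every library, HK2, ALDOA, PGK1, PGAM1 and LDHA spread over more than a decade, and only for PKM and LDHA do the red points all lie above the blue ones.

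PKM (chr15:72199029-72231591), pyruvate kinase, makes ATP and pyruvate. Its splice forms PKM1 and PKM2 are merged in a gene-level value. It had FPKM 258, 119 and 244 in shNAT10, against 103, 84.3 and 105 in shNC, from 3074, 1528 and 2509 fragments in shNAT10 and 2988, 2373 and 3079 in shNC. The 3 shNC libraries agreed within a factor of 1.24, and the lowest shNAT10 value, 119, lay just above the highest shNC value, 105. The means were 207 ± 76.7 in shNAT10 and 97.4 ± 11.4 in shNC (SD, n = 3 each), a log2 difference of 1.01 (SE 0.99, 95% interval -0.94 to 2.96). Its limma adjusted p was 0.754, short of the threshold. The two-sided exact permutation test gave p = 0.1, the smallest that 3 against 3 libraries can give.

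LDHA (chr11:18394563-18408425), which reduces pyruvate to lactate, showed the largest difference of the 10. It had FPKM 135, 32.9 and 25.0 in shNAT10, against 11.9, 0.833 and 16.8 in shNC, from 1165, 306 and 186 fragments in shNAT10 and 250, 17 and 357 in shNC. The margin between the groups lay between 25.0 in shNAT10 replicate 3 and 16.8 in shNC replicate 3. The log2 difference was 2.72 (SE 1.61, 95% interval -0.46 to 5.90). Its adjusted p by limma was likewise 0.754, and its exact permutation p the same smallest value, 0.1. Without shNAT10 replicate 1 the difference was 1.99, and without shNC replicate 2, the library with 17 fragments, it was 1.70.

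Separation of the groups depended on how libraries were scaled. With FPKM rescaled to 1 common total per library, the TPM scale, PKM was at least 214 in shNAT10 and at most 224 in shNC, and LDHA at least 35.1 in shNAT10 and at most 35.8 in shNC, so both overlapped. After quantile normalization LDHA stayed apart and PKM overlapped. With a plain fragment total or median ratio scaling both stayed apart. Of all 10517 tested genes, 9.61% had groups that did not overlap, most of them lower in shNAT10 (6.72%), against 2 of 10 enzyme genes, both higher.

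The promoters of PKM and LDHA are shown because these are the members whose groups did not overlap. Each RefSeq window (GRCh38.p14) runs from 250 bases before to 50 after a gene start. Capitals mark ACGTG, a form of the core of the HIF-1 response element, on either strand (CACGT when read on the other one), where it was found. That core can also begin with G, and the form GCGTG was neither marked nor counted. Read as CACGC on the other strand, it occurs in both windows below. The letters ACGTG also lie inside CACGTG, the E-box that MYC binds. The upstream LDHA window was chr11:18394313-18394612 on the plus strand and the PKM window chr15:72231141-72231440 on the minus strand, around a start inside the annotated gene.
LDHA: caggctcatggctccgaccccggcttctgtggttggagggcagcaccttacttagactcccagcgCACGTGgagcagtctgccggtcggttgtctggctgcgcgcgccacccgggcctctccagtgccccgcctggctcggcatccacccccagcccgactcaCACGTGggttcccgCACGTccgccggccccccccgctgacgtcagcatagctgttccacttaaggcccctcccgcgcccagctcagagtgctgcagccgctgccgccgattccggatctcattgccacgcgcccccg
PKM: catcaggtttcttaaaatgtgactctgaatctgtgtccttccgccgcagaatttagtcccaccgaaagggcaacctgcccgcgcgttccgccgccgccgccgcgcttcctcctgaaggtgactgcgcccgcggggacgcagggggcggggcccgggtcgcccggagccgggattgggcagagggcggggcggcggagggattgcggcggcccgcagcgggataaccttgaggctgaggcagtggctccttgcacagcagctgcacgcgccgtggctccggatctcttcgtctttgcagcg
The LDHA window held 3 separate stretches of ACGTG, 2 of them as CACGTG, and the PKM window held no ACGTG. Of the 15 windows listed for the enzymes 10 held the motif, and 7 of the 10 genes had it in at least 1 window, against 21.4% of all 35116 windows and 24.9% of 27305 genes. HK2 had 4 stretches in 2 windows, PGK1 3 in 1 window and ALDOA 3 in 3 windows. ENO1, PGAM1 and PKM had no ACGTG in these windows. Of the 2 LDHA windows 1 held the motif. The shares over all windows and genes were not matched to the enzymes in level or in base content. A match of letters does not show a bound site, and a gene with several windows has more chances of a match.

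The order of levels was firm at the top and loose below it. GAPDH was first in 6 of 6 libraries, ENO1, TPI1 and PKM took places 2 to 4 in all 6, and HK2 was last in 4. By mean log2(FPKM + 1), GAPDH exceeded ENO1 by 1.49 ± 0.68 (SD over 6 libraries), and PKM exceeded ALDOA by 2.05 ± 1.90. GPI exceeded HK2 by 2.07 ± 1.55, in 6 of 6 libraries. The other neighbours in the order, ENO1 and TPI1, TPI1 and PKM, and ALDOA, PGAM1, PGK1, LDHA and GPI in turn, differed by less than the SD of their difference. ALDOA moved most, between place 5 and place 10, as did PGAM1. As a description over the 10 genes, the Spearman correlation of levels between libraries was 0.73 to 0.92 within shNAT10, 0.73 to 0.90 within shNC and 0.68 to 0.92 across hairpins.

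Spread between replicates followed level. The within-group SD of log2(FPKM + 1) was 0.41 for GAPDH, 0.46 for PKM and 0.53 for ENO1, below the median of the 200 genes nearest in level, which was 0.65, 0.87 and 0.82. TPI1, at 0.91 against 0.82 for its neighbours, was less steady, with shNAT10 replicate 2 far below the rest. GPI stood out among the scarcer members at 0.82 against 1.97, with only 6% of its neighbours steadier. LDHA had 1.55 against 1.97, and PGAM1 1.79 against 1.88. PGK1, at 2.05 against 1.84, varied more than its neighbours.

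**Figure D2:**
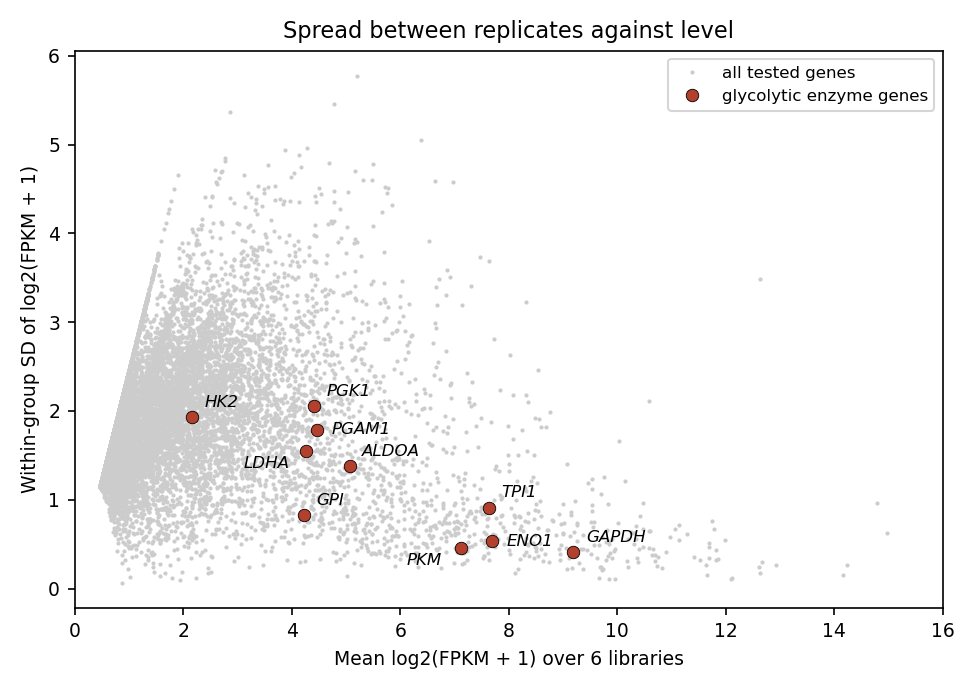
Within-group SD of log2(FPKM + 1) against mean log2(FPKM + 1) over 6 libraries, for all tested genes (grey) and the 10 enzyme genes (red). GAPDH, ENO1 and PKM lie at an SD of 0.41 to 0.53 at the high end of level, and PGK1 and HK2 near 2.

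Summed over the 10 genes, the level was FPKM 2074.5, 1322 and 1479 in shNAT10, against 1085, 1164 and 1186 in shNC. All 3 shNAT10 sums lay above the shNC sums, which agreed closely, with means of 1625 ± 397 in shNAT10 and 1145 ± 52.9 in shNC (SD, n = 3 each), a ratio of 1.42. The ratio was 1.40 without GAPDH, the most abundant member, and 1.23 with a plain fragment total. On the TPM scale it was 1.18, and the shares of all FPKM overlapped at 0.359%, 0.238% and 0.208% in shNAT10, against 0.210%, 0.219% and 0.253% in shNC. Replicate 1 labelled shNAT10, the one whose NAT10 was at 0, had the highest sum. In it 8 of 10 enzymes lay above their mean over the 6 libraries. Set alone against shNC it gave a ratio of 1.81, a comparison chosen after seeing the data. Since 77.4% of all tested genes were at 0 in at least 1 library, NAT10 at 0 does not by itself show a knockdown. GAPDH made up 42.7%, 63.1% and 29.5% of the sum in shNAT10, against 41.8%, 43.8% and 44.8% in shNC, a wider range in shNAT10. A sum over chosen genes was given no test.

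**Figure D3:**
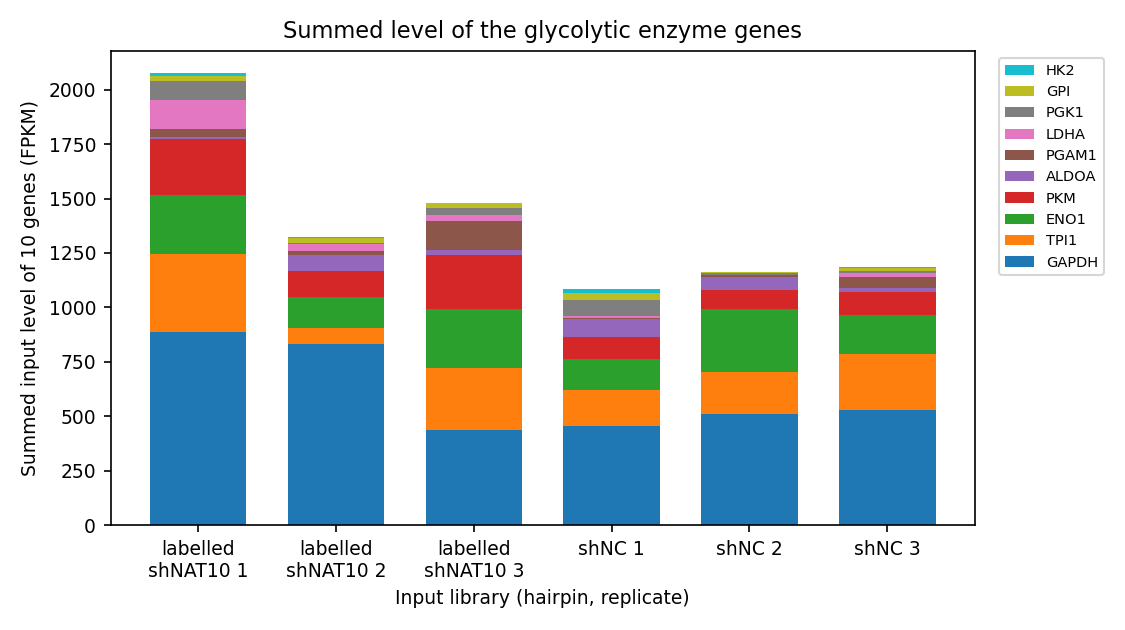
Summed FPKM of the 10 enzyme genes in each input library, stacked by gene, with the libraries labelled shNAT10 left of shNC. The shNC bars are nearly alike in height at 1085 to 1186, while the shNAT10 bars run from 1322 to 2074.5 and differ in the GAPDH part.

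Across the 10 genes the log2 difference ran from -0.96 in ALDOA to 2.72 in LDHA, with 7 positive and 3 negative values and a median of 0.32. HK2 was at -0.85 (SE 1.88), GPI at 0.79 (SE 1.61), ALDOA at -0.96 (SE 1.45), TPI1 at -0.05 (SE 0.89) and PGK1 at 0.11 (SE 1.59). Over all 10517 tested genes the median was -0.49, and over tested protein-coding genes -0.47. This all-gene median is not matched to the enzymes in level, and it moved with the setting. It was -0.198 among genes averaging FPKM 5 or more, -0.155 without a filter and -0.077 after quantile normalization. With a pseudocount of 0.01 it was -1.06. By limma, 0 of the 10 passed, and 0 had an unadjusted p under 0.05. Of all tested genes 0.0856% passed as higher in shNAT10. Unadjusted p-values under 0.05 made up 3.70%. Among the 8140 protein-coding genes, 0.00% passed. On recovered fragments, limma with voom called 73 protein-coding genes and none of the 10. Intervals were wide even for abundant enzymes: that of ENO1 ran from -1.54 to 1.89 and that of TPI1 from -1.80 to 1.69. Their width rests mostly on genes of like level, not on the enzyme's own replicates. The within-group SD was 0.53 for ENO1 and 0.91 for TPI1, while the median of their neighbours in level was 0.82 for both. The signs of HK2, TPI1, PGK1 and ENO1 turned when single libraries or the scaling were changed. Those of LDHA, PGAM1, PKM, GAPDH, GPI and ALDOA held in all 19 alternatives. A change of filter or eBayes setting, or a block for replicate number, leaves a log2 difference as it is and could not turn a sign. In the other alternatives their sizes moved. With 1 library left out, ALDOA ran from -1.76 to -0.18, GPI from 0.23 to 1.38 and PGAM1 from 1.33 to 3.37. In the same way LDHA ran from 1.70 to 3.34, PKM from 0.81 to 1.36 and GAPDH from 0.28 to 0.79, with GAPDH at 0.047 after quantile normalization. With shNAT10 replicates 2 and 3 left out, 9 of 10 differences were positive, with a median of 0.97 beside -1.12 for all tested genes, and 0 passed by limma in a fit in which 1 library stood for shNAT10 and was assumed to vary like shNC.

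**Figure D4:**
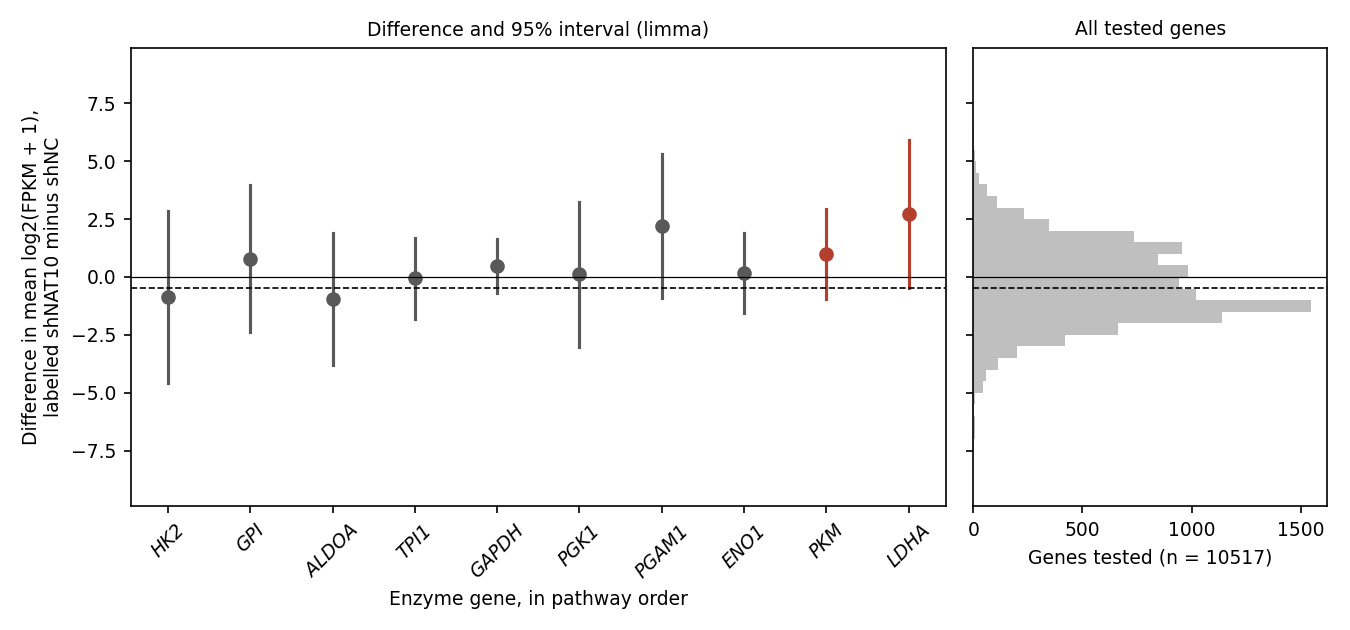
Left, difference in mean log2(FPKM + 1), libraries labelled shNAT10 minus shNC, with its 95% limma interval for each enzyme gene in pathway order, in red where the groups did not overlap (PKM and LDHA). Right, the same difference for all 10517 tested genes. The dashed line is their median, -0.49, and every interval of an enzyme gene includes 0.

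Deposited ac4C peaks lay in 2 of the 10 enzyme genes, LDHA and PGAM1, with 1 peak each. Of the 3891 protein-coding genes in the same range of mean level, 24.4% had a deposited peak, and of all tested protein-coding genes 19.0% did. GAPDH, ENO1, TPI1 and PKM, the abundant members, had none in the deposited table, which lists differential peaks only and does not show whether they carry an unchanged one. The authors' deposited table gave the LDHA peak at chr11:18407345-18407525 (GRCh38, plus strand), in the 3' UTR, ending 900 bases before the RefSeq end of the gene. In the authors' deposited table its fold enrichment was 10.1, its log2 change -4.61 and the log10 of its differential FDR -2.23. It held 1 site of the repeated CXX motif that the authors counted, 64 bases into its 181.

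The PGAM1 peak lay at chr10:97430578-97431118 (GRCh38, plus strand) in coding sequence, as blocks of 76 and 164 bases with a gap of 301 bases between them. The authors' deposited table gave it a fold of 4.76, a log2 change of -2.80 and a log10 differential FDR of -53.3, lower than in 95.5% of all deposited peaks. It held 3 CXX sites, 2 in the first block and 1 in the second, or 12.5 per 1000 bases against 5.52 in the LDHA peak. Both log2 changes were negative, as in 61.7% of the 2364 deposited peaks. Which hairpin stood in the numerator was not stated, so no direction of acetylation follows. The size for LDHA was near the median of the negative peaks, -4.43, and that for PGAM1 larger than in just 12.7% of them. In the authors' deposited table both folds were below the median of all peaks, 10.5.

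**Figure D5:**
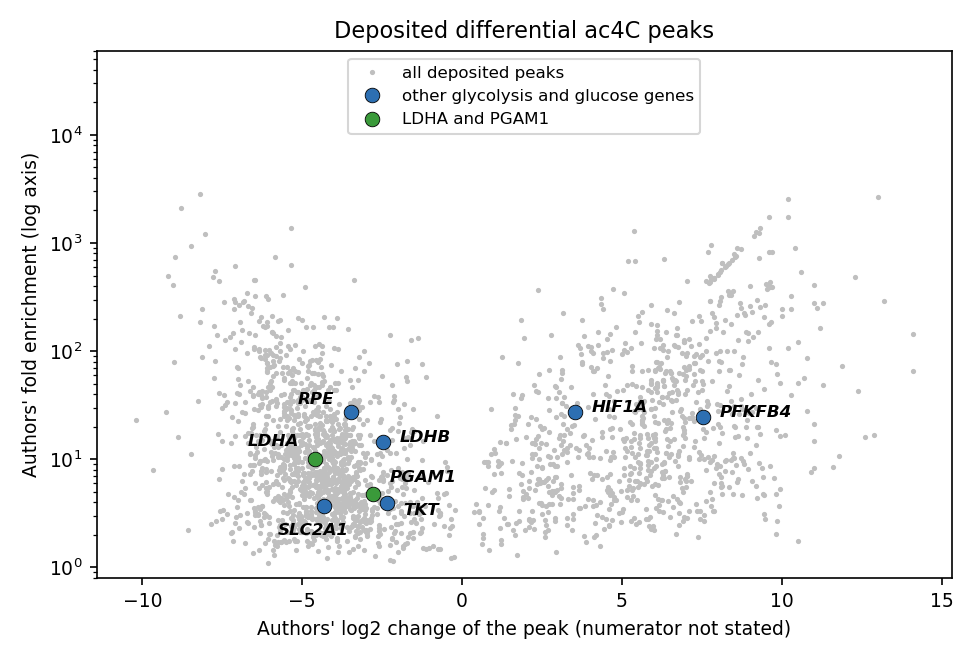
The authors' fold enrichment (log axis) against their log2 change for all 2364 deposited peaks (grey), with those of LDHA and PGAM1 in green and those of 6 other glycolysis and glucose genes in blue. LDHA and PGAM1 lie on the negative side at folds of 10.1 and 4.76, and HIF1A and PFKFB4 are the only named genes on the positive side.

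LDHA and PGAM1 were also the members with the largest input differences, 2.72 and 2.20, neither past the test. The sources used here do not say how the authors' change was corrected for input, and a link between input level and peak change was not tested.

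The rest of glucose metabolism was read from 52 further genes, of which 35 passed the filter. By limma 0 of the 35 passed and 0 had an unadjusted p under 0.05. Their median log2 difference was 0.02, with 18 positive and 17 negative, beside 0.32 for the 10 enzymes and -0.49 for all tested genes. The last of these is not matched in level to either list. By class the median was 0.32 for isozymes (11 tested), -1.23 for transporters (5), 0.92 for regulators (4), -2.03 for pyruvate fate (7), -1.34 for the pentose phosphate branch (5) and 1.68 for gluconeogenesis (3). Groups did not overlap in 2 genes of the list that were higher and 4 that were lower in shNAT10. Of all tested genes, 2.89% were higher and 6.72% lower in this way. The genes of the list included the following. TKT and TALDO1 run the non-oxidative pentose phosphate branch, and both were higher in every shNAT10 library in FPKM. TKT had FPKM 91.9, 110 and 165 in shNAT10, against 90.3, 57.6 and 73.1 in shNC, and TALDO1 had 100.3, 94.6 and 137 in shNAT10, against 40.9, 64.2 and 56.5 in shNC. TKT parted by a narrow margin and overlapped on the TPM scale, with a plain fragment total and after quantile normalization, while TALDO1 stayed apart in each of these. PFKM, the muscle phosphofructokinase, was at 1.58, 0 and 0.573 in shNAT10, against 14.1, 4.35 and 11.7 in shNC, and overlapped after quantile normalization. PCK2, the mitochondrial enzyme that makes phosphoenolpyruvate from oxaloacetate, was at 0, 1.12 and 5.58 in shNAT10, against 21.5, 12.6 and 17.3 in shNC. GAPDHS, the sperm isozyme of GAPDH, was listed at 0 in all 3 shNAT10 libraries, with a single shNC library at 74.9 and the others at 0.200 and 0.192. Those low shNC values rested on 1 fragment each, in libraries with more fragments than shNAT10. The lack of overlap in GAPDHS thus hangs on single fragments.

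Isozymes placed the members among their relatives. LDHB, the lactate dehydrogenase subunit that favours pyruvate formation, had FPKM 193, 174 and 62.1 in shNAT10, against 108, 113 and 106 in shNC. It exceeded LDHA in all 6 libraries, with an LDHA to LDHB ratio of 0.701, 0.189 and 0.402 in shNAT10, against 0.110, 0.00736 and 0.158 in shNC. The ratio was thus higher in every shNAT10 library, and no test was run on it. ENO3, the enolase of muscle, was above ENO1 in all 6 libraries, at FPKM 1005, 316 and 581 in shNAT10, against 523, 360 and 498 in shNC. In RefSeq coordinates 179 bases lie between ENO3 and PFN1, an abundant actin regulator, on chromosome 17. PFN1 had FPKM 142, 296 and 190 in shNAT10, against 104, 96.1 and 141 in shNC, and the ENO3 to PFN1 ratio ran from 1.07 to 7.08. No source used here says whether counting used strand.

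The step missing from the 10, phosphofructokinase, was uneven. PFKP, its platelet form, had FPKM 6.99, 1.10 and 76.8 in shNAT10, against 31.0, 2.52 and 0.181 in shNC. PFKL, its liver form, had 11.7, 16.4 and 1.87 in shNAT10, against 0.331, 13.7 and 0.0327 in shNC. Both overlapped between hairpins, while PFKM, given above, was lower in every shNAT10 library in FPKM. SLC2A1, the glucose transporter GLUT1, had FPKM 121, 11.6 and 76.0 in shNAT10, against 56.4, 9.09 and 20.8 in shNC. BSG, the partner of the lactate exporters and the most abundant gene of the transporter class, had 34.8, 131 and 143 in shNAT10, against 97.4, 84.2 and 83.2 in shNC. Neither passed the limma test. HIF1A, the oxygen-regulated part of HIF-1, had FPKM 49.3, 39.8 and 45.4 in shNAT10, against 30.9, 43.3 and 14.4 in shNC, with overlap. MYC, the most abundant regulator, had 246, 103 and 42.3 in shNAT10, against 29.3, 55.7 and 60.3 in shNC, also overlapping. Of the pyruvate fate genes, 0 of 8 were above 0 in all 6 libraries, and PDHB, a subunit of pyruvate dehydrogenase with the highest mean of them, had 1.07, 0 and 23.0 in shNAT10, against 0.188, 0.0645 and 34.0 in shNC. PC, pyruvate carboxylase, was the most abundant gene of the gluconeogenesis class, at 24.6, 25.9 and 35.9 in shNAT10, against 1.15, 39.3 and 7.93 in shNC.

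Genes of this list with a deposited peak included LDHB, TKT, RPE, SLC2A1, HIF1A and PFKFB4. In the authors' deposited table the log2 change was -2.46 in LDHB, -2.35 in TKT, -3.46 in RPE and -4.33 in SLC2A1, the same sign as in LDHA and PGAM1. It was 3.52 in HIF1A and 7.53 in PFKFB4, a kinase and phosphatase that sets the level of fructose 2,6-bisphosphate. Input was scarce for 2 of these genes. PFKFB4 was at FPKM 0 in all 3 shNAT10 inputs, against 0.871, 0 and 0.956 in shNC, and did not pass the filter. RPE was at 0, 0.19 and 0 in shNAT10, against 13.0, 48.7 and 0 in shNC. Both lactate dehydrogenase subunits thus had a deposited peak of negative sign, that of LDHB in coding sequence with no CXX site counted.

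Enzymes of this route have many processed pseudogenes, which can share reads with the parent gene. Of 98 copies listed for the members, 62 of them of GAPDH, 5 were above 0 in some library. GAPDHP20 reached FPKM 31.9 and PGAM1P8 17.0, each in 1 library, while TPI1P1 and PKMP1 stayed at or below 1.92, and adding all copies left the summed ratio at 1.41. ENO1-AS1, antisense to ENO1 by name and beside it without overlap in RefSeq, had FPKM 0, 126 and 3.66 in shNAT10, against 57.0, 23.4 and 0 in shNC. SPSB2, whose far end overlaps that of TPI1, had 3.23, 0 and 0 in shNAT10, against 0, 15.0 and 4.76 in shNC.

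Among 2965 protein-coding genes averaging FPKM 10 or more, the pattern most like the summed enzyme level over the 6 libraries was that of the histone gene HIST1H2AJ (Pearson correlation of log2 values 0.99), followed by C17orf80 (0.97) and TAGLN (0.97). HIST1H2AJ had FPKM 3676, 1262 and 1890 in shNAT10, against 710, 846 and 891 in shNC. TAGLN, a smooth muscle actin binder and one of the markers above, had 68.9, 2.04 and 1.49 in shNAT10 and was listed at 0 in all shNC libraries. All of them were highest in shNAT10 replicate 1. The correlations describe 6 values, without a test.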

How the data were processed

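Input RNA of 6 libraries and an ac4C peak table were used. The authors deposited gene levels as FPKM with no stated counting tool, strand setting or annotation. Columns named sh were taken as shNAT10 by elimination, and 0 columns stayed unmapped. Per the file headers, the authors' peak table gives a fold ratio, the p-value of the peak call, log10 scores of p and FDR, a log2 change and a count of motif sites. Per the submitters' processing notes, cutadapt 2.5, HISAT2 2.1.0 and HOMER 4.10.4 were used, in roles not stated, with builds GRCh38 and GRCm38. Coordinates were read as GRCh38, since the LDHA and PGAM1 peaks fall in those RefSeq genes. No genome sequence of the peaks was used here.

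Genes that averaged FPKM 1 or more were tested on log2(FPKM + 1) with limma 3.58.1 in R 4.3.3 (lmFit, eBayes with trend, Benjamini-Hochberg over 10517 genes, threshold 0.05), as the labelled shNAT10 libraries minus shNC. Fold changes on this scale understate those of low genes. The prior carried 212.6 degrees of freedom, so an SE rests mostly on genes of like level. Whole fragments came from the authors' denominators, found from mitochondrial mRNA lengths, and the smallest gene length that made all libraries whole, so that wholeness is fixed by the search and a low gene can be given too short a length. Voom on these fragments called 95 genes. The denominators were 0.979 to 1.27 times the fragment sums. Limma p-values measure spread between these libraries, mostly that of genes of like level. That spread may be technical, and PCR copies were not marked. Deviations of same-numbered libraries correlated at 0.00, -0.02 and 0.01, so no pairing by number was seen. With values this uneven between libraries, a weak pairing could go unseen. Scripts were tested on simulated data. Named genes were the members and NAT10. Of the other list they were those past the test, the most abundant of each class and those with a peak. Genes with groups that did not overlap, PFKP, PFKL and genes beside members were added after their values were seen. A withheld result is not reported here. The members and lists were chosen with earlier results of these data known.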

Additional observations from a re-analysis of the deposited data

How the results depend on the processing

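In all 19 alternatives, which leave out libraries or change the pseudocount, filter, scaling or variance model, 0 of the 10 enzymes and 0 of the other glucose genes passed the limma test, and the median enzyme difference stayed positive, from 0.05 (TPM scale) to 0.97. With a replicate left out it was 0.15 to 0.71. The changes of filter and eBayes setting and the replicate block could not move it, and it was 0.32 in each, as in the main setting. On the TPM scale, with voom and with a plain fragment total, 5 of the 10 enzyme differences were positive, against 7 in the main setting. The median of the other glucose genes was -0.85 to 0.054 with a replicate left out and -0.77 without shNAT10 replicates 2 and 3, a setting chosen after seeing the data, as was the plain fragment total. The summed level had a ratio of 1.18 on the TPM scale, 1.81 without shNAT10 replicates 2 and 3, and 1.22 to 1.55 with a replicate left out. The NAT10 difference was 1.48, but -0.23 with a pseudocount of 0.01 and -1.81 without shNAT10 replicates 2 and 3. Members with a deposited peak numbered 1 at a deposited fold of at least 10 (LDHA), since that of PGAM1 was 4.76. Signs of uncalled members turned as follows: HK2 1.12 and TPI1 0.83 without shNAT10 replicates 2 and 3; PGK1 -0.19 on the TPM scale, -0.16 with voom and -0.10 with a plain fragment total; ENO1 -0.14 after quantile normalization, -0.10 on the TPM scale, -0.0097 with voom and -0.026 with a plain fragment total. With a replicate left out HK2 ran from -1.98 to 0.089, TPI1 from -0.49 to 0.66, PGK1 from -0.87 to 1.47 and ENO1 from -0.058 to 0.48. Over all genes the main test called 20, against 7 with a pseudocount of 0.01, 10 when genes had to average FPKM 5, 95 with voom and 1 to 34 with a replicate left out. It called 0 without a filter, without trend and without shNAT10 replicates 2 and 3, where 340, 480 and 1139 genes had an unadjusted limma p under 0.05. The cause of these changes was not tested. Among protein-coding genes the main test called 0, voom 73 and the fit without shNAT10 replicate 2 just 1. That no enzyme passed thus does not set the enzymes apart from other protein-coding genes. The replicate block changed no call of these results. Fragment numbers as low as 2 limit HK2, and 3 libraries per group limit every interval.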
